A study of Mus musculus with 6 samples.

Results

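The extracellular matrix and basement membrane genes of the mouse lateral ventricular choroid plexus were 112 of the 3956 transcript clusters with a deposited value. On these arrays a cluster groups the probe sets that the design assigns to 1 gene. A cluster was taken as a member when the cellular component annotation in the tables named the extracellular matrix, the basement membrane, the basal lamina or collagen, or when its symbol was that of a collagen chain. The rule itself used no expression value, but a cluster needed an entry in a table selected on expression or exon usage. Col23a1 was the only member chosen by its symbol alone. The annotation also brought in genes that are not structural matrix proteins, such as Wnt ligands, and these are described under their own roles.

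The choroid plexus is the tissue of each brain ventricle that secretes cerebrospinal fluid. It is a sheet of epithelial cells lying on a basement membrane over a stroma of fibroblasts and fenestrated blood vessels. The study compared this tissue between embryonic day 15 (E15) and adult Swiss Webster mice, on arrays with probes for the exons of each gene. There were 3 arrays for each age, each hybridised with amplified RNA from 1 pool. Per the labels, a pool held plexuses of 30 E15 pups of mixed sex or of 10 adult females, all healthy and untreated. The study's supplementary description gives other pool sizes and calls the embryos unsexed, while the adults are females in both. Sex and age therefore differed together and cannot be told apart for any value below. The plexus was taken whole, with its vessels and stroma, so fewer cells of a type and less RNA per cell cannot be told apart either.

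Basement membranes are thin sheets built from a laminin network and a type IV collagen network, joined by nidogens and heparan sulphate proteoglycans such as perlecan and agrin. The stroma beneath is built from fibrillar collagens, microfibrils and elastin, fibronectin and other glycoproteins, and proteoglycans that hold water and growth factors. In the choroid plexus these layers lie between the leaky capillaries and the epithelium, whose tight junctions form the blood-cerebrospinal fluid barrier.

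Each table held 1 normalised log2 value per age, merged from the 3 arrays and centred near 0 for each cluster. No value per array was used here, so the differences below carry no error and no test, and no replicate check was possible. The level of 1 gene cannot be set against that of another on this scale. Differences are given on the log2 scale as adult minus E15, so that negative ones are higher at E15, and a fold is the linear ratio of the higher age to the lower. Of the members, 51 were in both the gene-level and the splicing table, 15 in the gene-level table alone and 46 in the splicing table alone. The gene-level table listed only clusters that had passed the authors' test and a 2-fold difference, whereas the splicing table was selected on exon usage and held clusters of any size of difference. A cluster past 2-fold in the splicing table alone had therefore not passed both the authors' expression filter and their test. Of the genes named below these were Lama1, Col6a1, Vtn, Itga8, Pdgfra and Camk2a, and the marker lists count further ones. A gene with no entry in either table is not described, and its level is not known here.

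The matrix genes lay mostly on the E15 side. Of the 112 members, 56 (50%) were at least 2-fold higher at E15, against 24.4% of all clusters. In the other direction 13 members (11.6%) were at least 2-fold higher in the adult, against 22.9% of all clusters. The remaining 43 members differed by less than 2-fold. By any size of difference 83 members were higher at E15, which was 74.1% of them against 54.1% of all clusters. The median difference was -1.01 for the members, a fold of 2.02 towards E15, and -0.16 for all clusters.

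**Figure D1:**
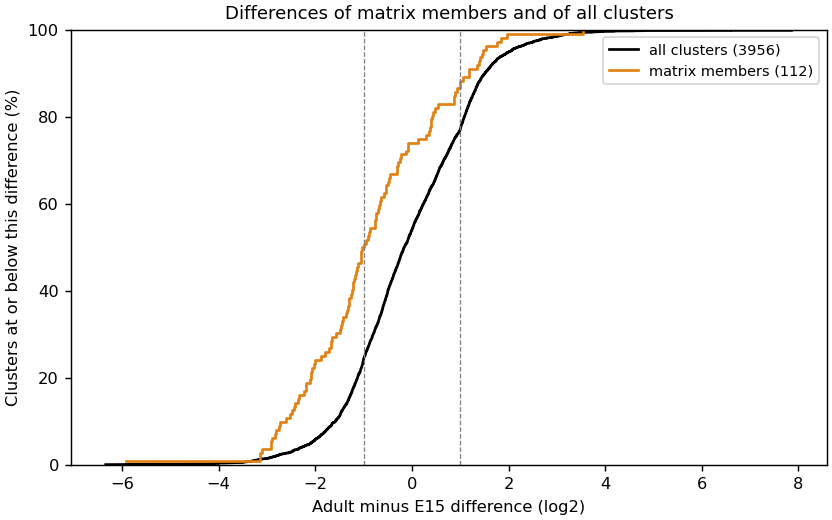
Cumulative share (%) of the 112 matrix members and of all 3956 clusters, on the vertical axis, against the adult minus E15 difference (log2). Dashed lines mark 2-fold. The curve of the members lies to the left of that of all clusters, with medians of -1.01 and -0.16.

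The imbalance was larger at limits of 3-fold and 4-fold than at 2-fold, but not at 8-fold, where few members remained. At 3-fold or more there were 33 members higher at E15 and 4 higher in the adult, and at 4-fold or more there were 27 and 1. All clusters were close to balance at the same limits, with 395 and 351 at 3-fold and 231 and 199 at 4-fold. At 8-fold or more 4 members were higher at E15 and 1 in the adult, against 57 and 56 of all clusters. Within the gene-level table, 54 of 66 members (81.8%) were higher at E15, against 925 of 1805 clusters (51.2%). Among clusters of the splicing table alone the members differed less from the rest, with 29 of 46 (63%) higher at E15 against 56.5%. Clusters past 2-fold are few there by construction, since most stand in the gene-level table. Of the 46, Lama1 and Col6a1 passed 2-fold at E15 (4.35%, against 1.95% of the clusters of the splicing table alone) and Vtn in the adult (2.17%, against 1.16%).

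These counts depend on where 0 is set. Setting the median of each age over the joined table to 0 moved differences by 0.15 towards the adult, and the counts became 50 members higher at E15 and 19 higher in the adult. The share of the members past 2-fold that were higher at E15 was 81.2% before and 72.5% after, against 51.7% and 43% of all clusters. With the median taken over the gene-level table instead, which holds no difference smaller than 2-fold, the shift was 0.85. Then 28 members were higher at E15 and 28 in the adult, a share of 50% against 14.4% of all clusters.

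**Figure D2:**
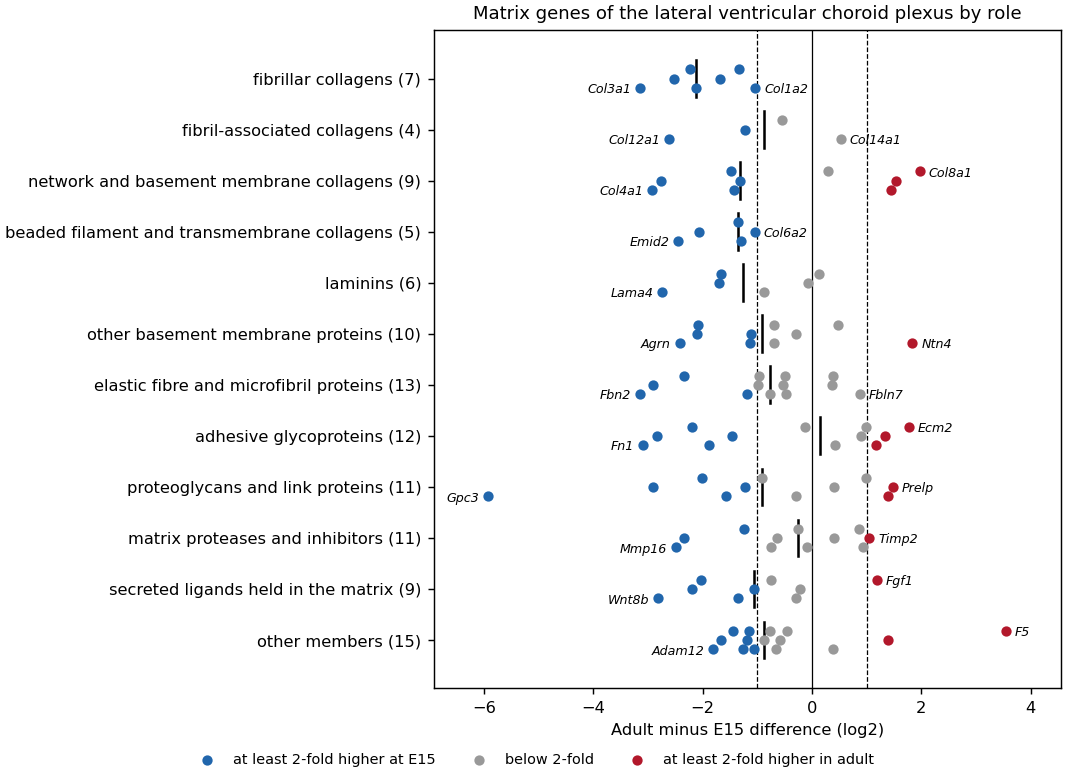
Adult minus E15 difference (log2) of each of the 112 members, 1 point per transcript cluster, grouped by role with the number of members in parentheses. Black bars are medians, dashed lines mark 2-fold, and genes at the ends of the groups are named. All fibrillar and all beaded filament and transmembrane collagens lie past 2-fold on the E15 side, and Gpc3 and F5 lie farthest out. Of the fibrillar, beaded filament and transmembrane collagens, all but Col6a1 are from the gene-level table, which holds only clusters past 2-fold.

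Collagens of fibrils were higher at E15 without exception among the 7 with an entry. Col3a1, the chain of type III collagen of soft connective tissue, had a value of 1.43 at E15 and -1.71 in the adult, a fold of 8.81. The chains of type I collagen, the main fibril protein of most stroma, had unequal differences. Col1a1 stood at 0.94 at E15 and -1.58 in the adult, a fold of 5.75, while Col1a2 stood at 0.39 and -0.65, a fold of 2.06 that lay just inside the limit. Type V and XI collagens start and thin fibrils. Their chains Col5a1, Col5a2 and Col11a1 were 4.34-, 3.21- and 4.72-fold higher at E15. Col2a1, best known from cartilage, was 2.52-fold higher at E15. The median difference over the fibrillar collagens was -2.12, and re-centring on the joined table took only Col1a2 below 2-fold, to -0.89.

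Fibril-associated collagens bind to the surface of fibrils and were less uniform. Col12a1 was 1.21 at E15 and -1.40 in the adult, a fold of 6.12. Col9a2 was 2.33-fold higher at E15. Col16a1 was 1.45-fold higher at E15 and Col14a1 was 1.45-fold higher in the adult, both below the limit. The median difference over these 4 was -0.88.

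The beaded filament and transmembrane collagens were all higher at E15, 5 of 5 past 2-fold, or 4 after re-centring on the joined table, which took Col6a2 to -0.89. Of 14 listed symbols only these had an entry, and all but Col6a1 were in the gene-level table with its 2-fold limit. Type VI collagen forms beaded filaments that anchor the basement membrane to the stroma. Its chain Col6a3 was 4.19-fold higher at E15, and Col6a1 and Col6a2 were 2.47- and 2.06-fold higher. Emid2, now named Col26a1 and listed with them, had a value of 1.23 at E15 and -1.22 in the adult, a fold of 5.46. The transmembrane collagen Col23a1 was 2.54-fold higher at E15.

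Of 9 network and basement membrane collagens 5 (55.6%, against 24.4% of all clusters) were at least 2-fold higher at E15 and 3 (33.3%, against 22.9%) in the adult, with a median of -1.31. The collagen IV chains differed in opposite directions. Type IV collagen is the network collagen of basement membranes, and its chains combine as trimers of fixed make-up. The chains a1 and a2 form the trimer of nearly all basement membranes. Col4a1 was 1.17 at E15 and -1.74 in the adult, a fold of 7.54, and Col4a2 was 1.24 and -1.52, a fold of 6.78. The chains a3 and a4 belong to the trimer best known from the kidney glomerulus and the lung. Both were higher in the adult, Col4a3 at -0.65 at E15 and 0.78 in the adult, a fold of 2.71, and Col4a4 at -0.71 and 0.84, a fold of 2.92. Col4a6, a chain of a further trimer, was 2.69-fold higher at E15, and Col4a5 had no entry in either table. Without Col4a3 and Col4a4 the members would number 110, with 56 past 2-fold at E15 and 11 in the adult.

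Other sheet-forming collagens also divided. The multiplexins Col15a1 and Col18a1, basement membrane collagens that carry heparan or chondroitin sulphate chains, were 2.80- and 2.47-fold higher at E15. Col8a1, a short-chain network collagen of the endothelial basement membrane, was -0.99 at E15 and 0.98 in the adult, a fold of 3.92. It had the largest adult-side difference of any collagen member. Its partner chain Col8a2 was 1.23-fold higher in the adult, below the limit.

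The genes Col4a1 and Col4a2 lie head to head and share a promoter region, and so their windows are shown. Each window runs from 250 bases before to 50 bases after the annotated start, from RefSeq on GRCm38.p6, and lies at chr8:11312777-11313076 on the minus strand for Col4a1 and at chr8:11312555-11312854 on the plus strand for Col4a2. Capitals mark the 78 bases that both windows cover, read from opposite strands.
Col4a1: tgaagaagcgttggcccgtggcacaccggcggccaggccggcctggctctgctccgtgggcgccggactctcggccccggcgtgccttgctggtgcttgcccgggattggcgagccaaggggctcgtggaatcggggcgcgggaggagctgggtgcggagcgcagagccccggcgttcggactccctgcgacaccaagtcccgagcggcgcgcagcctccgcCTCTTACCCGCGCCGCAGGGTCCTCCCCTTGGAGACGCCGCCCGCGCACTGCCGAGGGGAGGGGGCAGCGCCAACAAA
Col4a2: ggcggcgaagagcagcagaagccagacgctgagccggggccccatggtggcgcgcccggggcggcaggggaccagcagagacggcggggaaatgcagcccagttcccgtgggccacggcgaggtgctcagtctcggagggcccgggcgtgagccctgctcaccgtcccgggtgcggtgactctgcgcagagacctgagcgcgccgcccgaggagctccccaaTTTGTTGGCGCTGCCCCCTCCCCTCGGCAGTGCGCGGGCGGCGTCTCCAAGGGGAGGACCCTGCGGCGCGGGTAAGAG
The letters GGGCGG, the core of the GC box, occurred 1 time in the Col4a1 window and 3 times in the Col4a2 window on either strand. CCAAT occurred 1 time in each and TATAAA in neither. There was no promoter window for Col4a3, and none is described here for Col4a4.

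**Figure D3:**
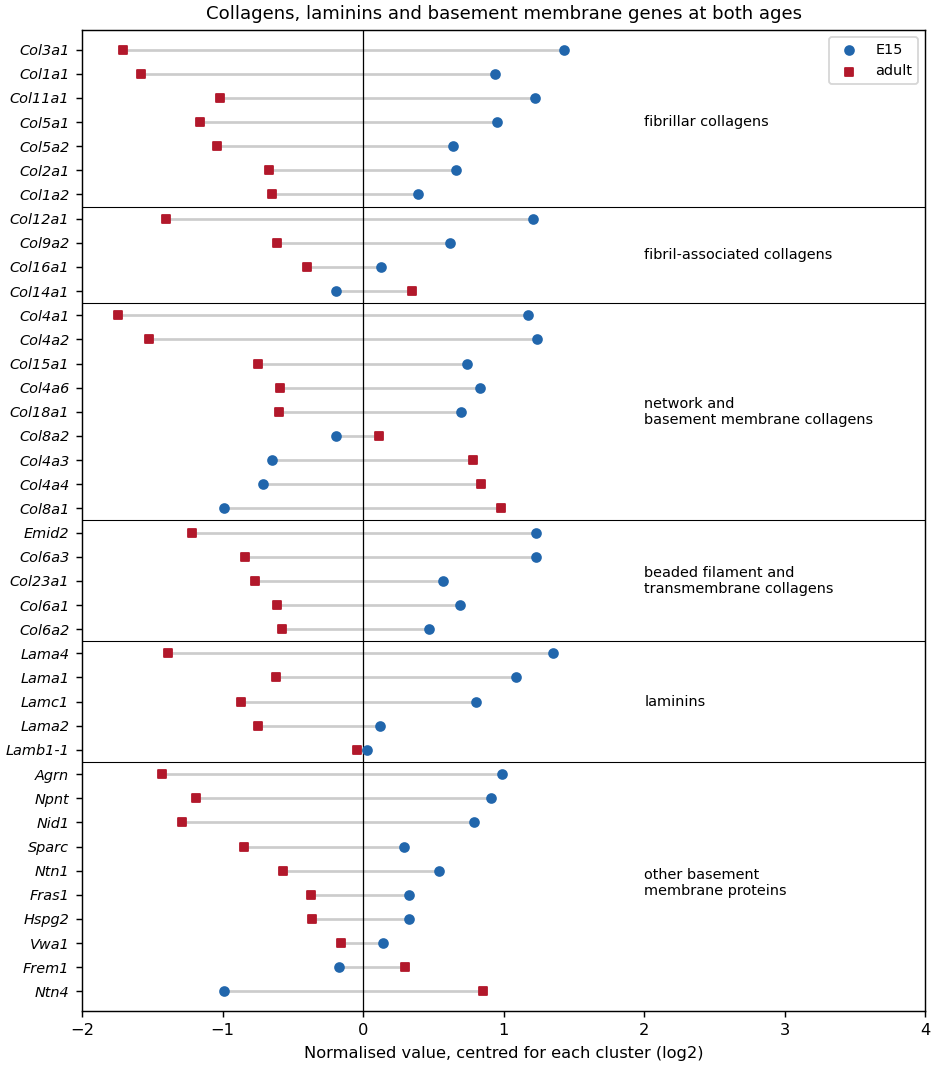
Normalised value (log2, centred for each cluster) at E15 (circles) and in the adult (squares) for collagen, laminin and other basement membrane members, 1 line per gene. Values are merged by the authors and carry no error bar. Circles lie to the right for most genes, whereas Col4a3, Col4a4, Col8a1 and Ntn4 have the square more than 1 unit to the right.

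Laminins are trimers of an alpha, a beta and a gamma chain and lay the first sheet of a basement membrane. Of 6 with an entry, 3 (50%, against 24.4% of all clusters) were at least 2-fold higher at E15 and none was that much higher in the adult. The median over the 6 was -1.27. Lama4, the alpha chain of vessel basement membranes, had a value of 1.35 at E15 and -1.39 in the adult, a fold of 6.69. Lama1, an alpha chain typical of embryonic epithelia, was 1.09 and -0.62, a fold of 3.26, but was not among the clusters kept by the authors' gene-level filter and test. Lamc1, the gamma chain of most laminins, was 3.19-fold higher at E15. Lama2 was 1.83-fold higher at E15, and Lamb1-1 differed by 1.05-fold. The beta chain Lamb1-1 thus lay near 0 at both ages, at 0.03 and -0.04, while the gamma chain that it pairs with did not. Its direction turned under re-centring, from -0.08 to 0.07.

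Among 10 other basement membrane proteins 5 (50%, against 24.4% of all clusters) were at least 2-fold higher at E15 and 1 (10%, against 22.9%) in the adult, with a median of -0.90. Agrn, a heparan sulphate proteoglycan, was 0.99 at E15 and -1.43 in the adult, a fold of 5.34. Npnt, a ligand of an integrin at epithelial basement membranes, was 4.29-fold higher at E15. Nid1, which links laminin to collagen IV, was 4.25-fold higher, in a cluster that carries more than 1 symbol. Sparc, a collagen-binding protein, was 2.20-fold higher at E15. Ntn1, a guidance protein related to the laminins, was 2.16-fold higher at E15 in a cluster shared with another symbol. Both lay below 2-fold under re-centring, with differences of -0.98 and -0.96.

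The remaining basement membrane genes were closer together. Perlecan (Hspg2) differed by -0.69, Fras1 by -0.70, Vwa1 by -0.30 and Frem1 by 0.47. Hspg2 and Agrn, the main heparan sulphate proteoglycans of basement membranes, thus had differences of unequal size. Ntn4, a netrin that can disturb laminin networks, was the exception on the adult side at -0.99 and 0.85, a fold of 3.57.

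Elastic fibres form as tropoelastin is laid on a scaffold of fibrillin microfibrils. Of 13 members of this kind 4 (30.8%, against 24.4% of all clusters) were at least 2-fold higher at E15 and none was that much higher in the adult, and their median was -0.77. Fbn2, the fibrillin of embryonic tissue, was 1.71 at E15 and -1.43 in the adult, a fold of 8.82. Fbn1, the fibrillin that predominates later in life, was 0.53 and -0.45, a fold of 1.98 just outside the limit. The microfibril-associated proteins Mfap2, Mfap4 and Mfap3 were 7.50-, 5.05- and 2.26-fold higher at E15. Elastin itself (Eln) differed by only -0.53. The other fibulins, emilins and latent TGF-beta binding proteins lay between -0.96 for Emilin1 and 0.88 for Fbln7.

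Adhesive glycoproteins had no common direction. Of 12 members 5 (41.7%, against 24.4% of all clusters) were at least 2-fold higher at E15 and 3 (25%, against 22.9%) in the adult. By any size 6 were higher at each age, and the median difference was 0.15. Fibronectin (Fn1), on which cells assemble much of the early matrix, was 1.65 at E15 and -1.45 in the adult, a fold of 8.60. Anxa2, a membrane-binding annexin found on the cell surface, was 1.04 and -1.79, a fold of 7.09. Reelin (Reln), a guide of neuronal migration, was 4.59-fold higher at E15. Tenascin C (Tnc), a glycoprotein of developing and healing tissue, was 3.71-fold higher and Spon2 was 2.78-fold higher.

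On the adult side of the same list stood Ecm2 at -0.89 and 0.88, a fold of 3.41. Vitronectin (Vtn), an adhesion protein of plasma and vessel walls, was 2.54-fold higher in the adult and galectin 3 (Lgals3), made by macrophages and epithelia, was 2.27-fold higher. Osteopontin (Spp1) and Tnxb were 1.98-fold and 1.86-fold higher in the adult, and Spon1 and Postn differed by 0.43 and -0.13. The list's median was -1.89 over the gene-level table alone and 1.00 after re-centring on that table.

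Proteoglycans held the largest difference of any member. Of 11, 5 (45.5%, against 24.4% of all clusters) were at least 2-fold higher at E15 and 2 (18.2%, near the 22.9% of all clusters) in the adult. The median over the 11 was -0.91. Gpc3, a glypican tethered to the cell surface that is abundant in embryonic tissue, was 2.85 at E15 and -3.07 in the adult, a difference of -5.92 and a fold of 60.4. Gpc4, the glypican next to it on the X chromosome, went the other way, at -0.64 and 0.75, a fold of 2.62 towards the adult. Gpc1 differed by -0.29. The promoter windows of Gpc3 (chrX:52613925-52614224, minus strand) and Gpc4 (chrX:52164874-52165173, minus strand) are shown because adjacent genes differed in direction, again from RefSeq on GRCm38.p6. Capitals mark GGGCGG on either strand.
Gpc3: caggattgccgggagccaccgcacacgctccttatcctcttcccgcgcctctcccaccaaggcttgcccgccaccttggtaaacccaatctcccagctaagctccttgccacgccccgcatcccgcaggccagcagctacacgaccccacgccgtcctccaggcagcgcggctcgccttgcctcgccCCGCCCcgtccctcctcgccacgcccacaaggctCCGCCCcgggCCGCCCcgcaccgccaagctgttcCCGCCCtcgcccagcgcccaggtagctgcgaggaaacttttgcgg
Gpc4: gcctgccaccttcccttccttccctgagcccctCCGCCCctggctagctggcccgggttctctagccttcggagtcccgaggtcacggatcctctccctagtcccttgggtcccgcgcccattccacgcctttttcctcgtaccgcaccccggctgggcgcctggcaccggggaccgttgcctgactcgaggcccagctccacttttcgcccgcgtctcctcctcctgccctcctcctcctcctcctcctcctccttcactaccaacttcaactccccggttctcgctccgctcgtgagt
The motif occurred 4 times in the Gpc3 window and 1 time in the Gpc4 window. G and C made up 70.7% and 66.7% of the bases.

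Versican (Vcan), a large chondroitin sulphate proteoglycan of loose embryonic stroma, was 1.72 at E15 and -1.18 in the adult, a fold of 7.45. The link protein Hapln3, which ties such proteoglycans to hyaluronan, was 4.01-fold higher at E15. The small leucine-rich proteoglycans, which bind collagen fibrils, were divided. Podn and Ogn were 2.97- and 2.34-fold higher at E15, Bgn was 1.88-fold higher at E15, Omd was 1.33-fold higher in the adult and Prelp was 2.78-fold higher in the adult. Brevican (Bcan), a proteoglycan of brain matrix, was 1.99-fold higher in the adult, just outside the limit.

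Among 11 proteases that remodel the matrix and their inhibitors, 3 were at least 2-fold higher at E15 (27.3%, near the 24.4% of all clusters) and 1 in the adult (9.09%, against 22.9%), with a median of -0.25. Mmp16, a membrane-bound metalloproteinase, was 1.15 at E15 and -1.33 in the adult, a fold of 5.60. Adamts12 was 5.11-fold higher and the versican-cleaving enzyme Adamts5 was 2.35-fold higher. Mmp11, Adamts2 and Adamts19 differed by -0.75, -0.25 and -0.09. The tissue inhibitors of metalloproteinases differed from one another. Timp2 was -0.52 at E15 and 0.53 in the adult, a fold of 2.07 just inside the limit. Timp3 and Timp4 lay on the adult side at 0.86 and 0.40, and Timp1 on the E15 side at -0.64. The protease-like Adamtsl4 was 1.91-fold higher in the adult.

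Of 9 secreted ligands held in the matrix 5 (55.6%, against 24.4% of all clusters) were past 2-fold at E15 and 1 (11.1%, against 22.9%) in the adult, with a median of -1.06. Wnt8b, a signal of the embryonic forebrain midline, was 1.44 at E15 and -1.37 in the adult, a fold of 7.01. Wnt5a was 4.07-fold and Wnt2b 2.56-fold higher at E15, while Wnt7b and Wnt5b differed by -0.30 and -0.22. Pleiotrophin (Ptn), a heparin-binding growth factor, was 4.60-fold higher at E15 and Tgfb1 was 2.09-fold higher. Bmp4 differed by -0.75. Fgf1 was the exception, 2.29-fold higher in the adult.

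The other 15 members had mixed functions. Of these 7 (46.7%, against 24.4% of all clusters) were at least 2-fold higher at E15 and 2 (13.3%, against 22.9%) in the adult. The median over the 15 was -0.88. The sheddase Adam12, the carboxypeptidase Cpz, the lipase inhibitor Angptl4 and the adhesion molecule Chl1 were 3.50-, 3.15-, 2.73- and 2.41-fold higher at E15. Oc90, a protein of the inner ear's otoconia in a cluster shared with Hhla1, and the vitreous proteoglycan Optc were 2.28- and 2.23-fold higher. Lepre1, now named P3h1, which hydroxylates collagen prolines, was 2.09-fold higher. On the adult side Gpld1, an enzyme that cuts glypican-type membrane anchors, was 2.64-fold higher. F5 had the largest adult-side difference of all members, at -1.77 and 1.78, a fold of 11.7. It encodes coagulation factor V, a plasma protein that was included through a collagen term in its annotation. The 6 below 2-fold lay between -0.88 for Adam19 and 0.39 for Entpd2.

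The limit of 2-fold separated genes with nearly equal values. Just inside stood Col1a2 (2.06), Col6a2 (2.06), Timp2 (2.07), Lepre1 (2.09) and Tgfb1 (2.09), and just outside Adamtsl4 (1.91), Emilin1 (1.95), Fbn1 (1.98), Spp1 (1.98) and Bcan (1.99).

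The enzymes listed as folding, cross-linking or modifying collagen and its neighbours were past 2-fold in both directions. Beside Lepre1, which is a member, 12 had an entry, of which 6 (50%, against 24.4% of all clusters) were at least 2-fold higher at E15 and 4 (33.3%, against 22.9%) in the adult. Their median was -0.62, and -1.06 with Lepre1. Fkbp10, a chaperone of type I collagen, was 5.08-fold higher at E15, Cercam was 7.50-fold higher, and the C-propeptide proteinases Bmp1, Tll1 and Tll2 were 2.69-, 2.64- and 2.11-fold higher. Sulf2, which removes sulphate from heparan sulphate chains and does not act on collagen, was 15.9-fold higher at E15. Without it 5 of 11 were at least 2-fold higher at E15 and 4 in the adult, with a median of -0.16. The enhancers of procollagen cleavage were higher in the adult, with a difference of 2.53 for Pcolce, in a cluster shared with Fbxo24, and of 2.32 for Pcolce2. The prolyl hydroxylase Leprel1 and the lysyl oxidase Loxl4 were 5.72- and 2.59-fold higher in the adult. The proteinases that cut the C-propeptides and the enhancers that speed the same cut thus differed in opposite directions.

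Receptors that bind the matrix were divided too, with 4 of 18 (22.2%, near the 24.4% of all clusters) at least 2-fold higher at E15 and 7 (38.9%, against 22.9%) in the adult, and a median of 0.01. Itga6, the alpha chain of laminin-binding integrins, was 3.94-fold higher at E15. Itga4, in a cluster shared with Cerkl, was 3.19-fold higher, Itga8, the receptor chain for Npnt, was 2.18-fold higher and the syndecan Sdc1 was 2.23-fold higher. Itgb6 was 4.59-fold higher in the adult, and Itga7, a further laminin-binding chain, 3.40-fold. Itgb4, the partner of Itga6 in hemidesmosomes, was 2.21-fold higher in the adult. Cd47, Sdc2, Sdc4 and Itgav were 2.16-, 2.12-, 2.11- and 2.00-fold higher in the adult.

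**Figure D4:**
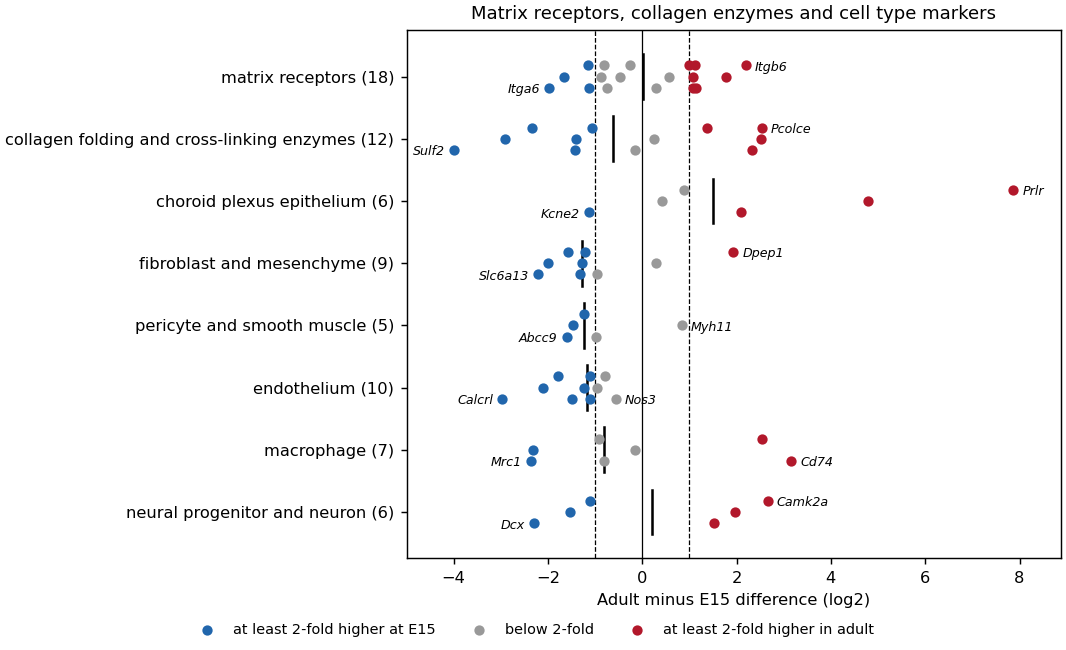
Adult minus E15 difference (log2) of matrix receptors, of collagen folding and cross-linking enzymes that are not members, and of cell type markers, 1 point per transcript cluster with the number in parentheses. Bars are medians, dashed lines mark 2-fold, and the genes at both ends are named. All 10 endothelial markers lie on the E15 side, and Prlr and Kl of the epithelial list lie farthest towards the adult.

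The endothelial, fibroblast and pericyte markers lay on the E15 side like most matrix genes, whereas the epithelial markers lay mostly on the adult side. All 10 endothelial markers with an entry, of 16 listed, were higher at E15, against 54.1% of all clusters. Of them 7 (70%, against 24.4%) were so by at least 2-fold. The median difference over the 10 was -1.17, with a range from -2.97 for Calcrl to -0.56 for Nos3. The markers Cdh5 and Pecam1 were 4.30- and 2.79-fold higher. Of 9 fibroblast and mesenchyme markers with an entry, of 18 listed, 6 (66.7%, against 24.4% of all clusters) were at least 2-fold higher at E15 and 1 (11.1%, against 22.9%) in the adult. The median over the 9 was -1.28, with a range from -2.21 to 1.93. Tbx18 and Pdgfra were 3.97- and 2.52-fold higher at E15 and Dpep1 was 3.81-fold higher in the adult. Of 5 pericyte and smooth muscle markers with an entry, of 12 listed, 3 (60%, against 24.4% of all clusters) were at least 2-fold higher at E15, among them Pdgfrb at 2.75-fold. The median over the 5 was -1.24, with a range from -1.60 to 0.84. Whether these cell types had a part in the differences of the matrix genes was not tested.

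The epithelial list had 6 of 16 markers with an entry. Of these 3 (50%, against 22.9% of all clusters) were at least 2-fold higher in the adult and 1 (16.7%, against 24.4%) at E15. Prlr, Kl and Cldn2 differed by 7.87, 4.78 and 2.10, and Kcne2 by -1.13. Defining markers such as Ttr, Folr1 and Otx2 had no entry in either table, and values centred for each cluster give no level, so the presence of the epithelium could not be checked directly. Of 7 macrophage markers with an entry, of 13 listed, 2 (28.6%) were at least 2-fold higher at each age, near the 24.4% and 22.9% of all clusters, and by any size 5 were higher at E15, with a median of -0.81. Of 6 neural markers, of 12 listed, 3 (50%) were at least 2-fold higher at each age, with a median of 0.20, Dcx 4.91-fold higher at E15 and Camk2a 6.33-fold higher in the adult.

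Members that are neighbours in the genome gave 8 adjacent pairs in the RefSeq gene order. In 4 pairs both genes had the same direction and passed 2-fold, namely Col3a1 with Col5a2, Col4a4 with Col4a3, Col6a2 with Col6a1 and Col4a1 with Col4a2. In the other 4 the genes differed in direction. In Optc with Prelp and in Gpc4 with Gpc3 both passed 2-fold. In Omd with Ogn only Ogn, on the E15 side, did.

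Apart from the terms that chose them, 51 members (45.5%) were annotated to cell adhesion, against 4.85% of all clusters. Of these 30 were at least 2-fold higher at E15 and 4 in the adult. The 28 members annotated to structural molecule activity had 20 and 3, the 20 annotated to calcium ion binding had 10 and 0, the 13 annotated to signal transduction had 8 and 2, and the 9 annotated to metalloendopeptidase activity had 4 and 0. The lean towards E15 was not seen at this limit in the 10 members annotated to heparin binding, with 3 and 2, nor in the 3 annotated to integrin binding, with 1 and 1 and a median of 0.99. Over all clusters the shares were 24.4% at E15 and 22.9% in the adult. No member was annotated to the cell cycle, a term of 5.74% of all clusters. The 29 members annotated to the basement membrane or basal lamina had a smaller median difference, -0.70, than the other 83 members, -1.05.

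A promoter window was found for 81 member genes, 101 windows in all. GGGCGG, searched on both strands, was in 62.4% of them, against 35.7% of all 32851 windows in the table. The share was alike for members at least 2-fold higher at E15 (64.4% of 45 windows) and in the adult (63.6% of 11 windows). CCAAT was in 29.7% of member windows and 37.4% of all, and TATAAA in 8.91% and 13.6%. The median content of G and C was 61% and 52.7%.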

How the data were processed

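RNA of 3 E15 and 3 adult pools of lateral ventricular choroid plexus was amplified and hybridised to Affymetrix Mouse Exon 1.0 ST arrays. The authors made gene-level log2 values with Affymetrix Power Tools by RMA, with a per-chip median, kept clusters above a percentile of expression that all 3 replicates had to reach, and deposited 1 merged log2 value per age. The gene-level table was kept by an unpaired test with Benjamini-Hochberg correction and a 2-fold limit. The log2 values of the splicing table equal the gene-level ones wherever a cluster is in both, and its clusters were kept by a filter on probe sets detected above background at both ages and a splicing analysis of variance on exon-level values from PLIER. Versions and the genome build are not given in the sources used here. Columns of the authors' fold change, direction and splicing index hold their own comparisons and were not used, nor was the table of clusters common to both. The number of arrays and pools limits precision, and the size of signal over background cannot be read from the values.

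The gene-level (1805 clusters) and splicing (3369) tables were joined. The 1218 shared clusters had values that differed in 0 cases. Differences, folds, counts and medians were computed with Python 3.11.15 and numpy 2.4.6, with join and counts tested on simulated data, and drawn with matplotlib 3.10.9. The members, role lists, marker lists and named genes were chosen with earlier results of these data known. All 112 symbols matched RefSeq, 4 by a synonym. Named were all collagens, laminins and basement membrane proteins among the members, other members past 2-fold, the 10 largest differences per direction, those next to the limit, and receptors and enzymes past 2-fold, except 1 gene that is not reported here. Further members below 2-fold, and the markers, were named after their values were seen. The splicing table gave the number of probe sets for 97 members, from 2 to 88 (median 18, against 13 for all clusters). Alternatives varied the fold limit, membership rule, tables and centring.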

Additional observations from a re-analysis of the deposited data

How the results depend on the processing

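The merged values allow no error, no test and no omission of single arrays, and they do not show signal over background. A second cluster of a gene could not be tried, since 0 members had one. No paired analysis was possible because the tables hold 1 merged value per age. The alternatives change the limit, the membership or the centring and could not turn the direction of a member past 2-fold. Of the summaries 36 moved, and the medians of elastic fibre proteins, adhesive glycoproteins and proteases changed sign under some. Members at least 2-fold higher at E15 numbered 56, and 33 at 3-fold, 27 at 4-fold, 36 of 69 members without electronic annotations, and 26 of 44 with collagen symbols and basement membrane terms alone. Those higher in the adult numbered 13, and 4, 1 and 5 at 3-fold, at 4-fold and under the narrow rule. The share at E15 was 89.2% at 3-fold and 96.4% at 4-fold. Over the gene-level table alone, which holds no cluster below 2-fold, the medians were -1.92 for fibril-associated collagens, -2.21 for laminins, -1.61 for other basement membrane proteins, -2.62 for elastic fibre proteins, -1.89 for adhesive glycoproteins, -1.57 for proteoglycans, -1.79 for proteases and inhibitors and -1.69 for ligands. The narrow rule gave 0.38, -2.36 and 0.86 for elastic fibre proteins, adhesive glycoproteins and proteases, and leaving out electronic annotations gave -2.90 for proteoglycans, with fewer members in each.

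Re-centring on the joined median turned the direction of 3 members (Postn, Adamts19 and Lamb1-1) and moved 12 across 2-fold. Re-centring on the gene-level table and leaving out chosen members were added after the data were seen. The former gave 28 members at each age, a share of 50%, and a median of -0.16 over all members. Its medians were -1.26 for fibrillar, -0.02 for fibril-associated, -0.45 for network and -0.49 for beaded filament collagens, -0.42 for laminins, -0.05 for other basement membrane proteins, 0.08 for elastic fibre proteins, 1.00 for adhesive glycoproteins, -0.06 for proteoglycans, 0.61 for proteases and -0.21 for ligands, each moved by the shift of 0.85.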

Other observations

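Several genes of the same families were not annotated to the matrix in the tables and so were not members. Of these 27 genes 9 (33.3%) were at least 2-fold higher at E15 and 9 (33.3%) in the adult, against 24.4% and 22.9% of all clusters, and 9 lay below. By any size 16 were higher at E15 and 11 in the adult. On the adult side stood Tgfb2, a TGF-beta isoform, at -2.07 at E15 and 2.14 in the adult, a fold of 18.4. Sod3, a superoxide dismutase bound to heparan sulphate, was -1.79 and 2.09, a fold of 14.8. Mgp, an inhibitor of matrix calcification, was 7.48-fold and the matrilin Matn4 4.26-fold higher in the adult. The thrombospondins divided, with Thbs2 2.33-fold higher in the adult and Thbs1 2.17-fold higher at E15. Further genes higher at E15 were Rspo3, an enhancer of Wnt signalling (9.42-fold), the basement membrane protein Egflam (3.75-fold), Cyr61 (3.54-fold) and midkine (Mdk), a relative of pleiotrophin (3.13-fold). Tgfb1 (2.09-fold) and Tgfb3 (2.31-fold) were higher at E15, opposite to Tgfb2. Over the 27 genes the median difference was -0.43, against -1.01 over the members.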
